A study of Homo sapiens with 3 samples.

Results

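Olfactory receptor genes are examined here as a set of promoter windows in SW1990 cells, an established human line of pancreatic ductal adenocarcinoma. A window belonged to the set if it lay on chromosomes 1 to 22 and its symbol had the form of an olfactory receptor name, that is OR, a family number, a subfamily letter and a member number, with an optional P for pseudogene. This name rule took 869 of the 60123 windows of the deposited promoter table, under 837 symbols. Of these symbols, 32 are listed under 2 identifiers, and 113 windows (13%) overlap another window. By name or description, 391 of these windows belonged to intact genes and 478 to pseudogenes. Members whose start sites lay within 1 Mb of each other were joined into 85 clusters. The rule used names and positions alone, and no measured value.

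The study performed chromatin immunoprecipitation and sequencing (ChIP-seq) in SW1990 cells of a population labelled SP, fixed with formaldehyde (0.4%) and EGS (1.5 mM). For the first library the antibody recognised PAF1, the founding subunit of the PAF1 complex that travels with elongating RNA polymerase II, called PD2 in its title. The second was made with an antibody against PHF5A, a small subunit of the SF3b part of the spliceosome, and the third library, titled input where the protocol names IgG as the control, was not analysed here. No background library therefore stands beside the values, which are signals and not enrichments over a control. The cells carry no stated gene edit or drug treatment, both antibodies were used on the same cell population, and the labels name 1 cell line, so the values describe that line alone. There was 1 library per antibody, so nothing below has a replicate check and no p-value is given. Each value is the mean signal of a library over a promoter window, which on hg38 begins 2000 bp before a start site and ends 500 bp past it, on the authors' scale. Promoter signal does not count transcripts, so the label of the line was not checked against marker genes. Values after ± are counting standard errors of 1 library, and 95% intervals of medians cover the spread between windows only. Because signal is shared between neighbouring windows, these intervals are narrower than they should be.

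Olfactory receptors form one of the largest gene families of mammalian genomes. They encode G protein-coupled receptors that signal, in neurons of the nose, to the G protein subunit encoded by GNAL, to adenylyl cyclase and to a cyclic-nucleotide-gated channel. Each olfactory neuron transcribes a single allele of a single receptor gene, while the remaining receptor genes are packed into silent heterochromatin. Class I receptors, related to those of fish, lie in a single cluster around the beta-globin locus on chromosome 11. Class II receptors are spread over many clusters. In humans a large share of these genes have decayed into pseudogenes, among them the OR7E subfamily, which was copied to many chromosomes by segmental duplication. Some receptors are known for transcripts outside the nose, such as OR51E2 in prostate and OR2AT4 in skin.

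What these promoters look like is shown by 5 of them, taken from RefSeq (GRCh38.p14), each from 250 bp before to 50 bp after the RefSeq start. OR2W1, OR4X2 and OR2J1 had some of the highest signals of the set, and OR2T5 and OR4M2 had signals below the counting floor. OR2J1, OR2T5 and OR4M2 were chosen after their values were seen, to show motif-bearing promoters at either end of the range. Capitals mark TATAAA and TAATTA, the core letters of a TATA box and of a homeodomain site, read on either strand. OR2W1 lies at chr6:29045126-29045425 (minus strand), OR4X2 at chr11:48244854-48245153 (plus strand) and OR2J1 at chr6:29099240-29099539 (plus strand).
OR2W1: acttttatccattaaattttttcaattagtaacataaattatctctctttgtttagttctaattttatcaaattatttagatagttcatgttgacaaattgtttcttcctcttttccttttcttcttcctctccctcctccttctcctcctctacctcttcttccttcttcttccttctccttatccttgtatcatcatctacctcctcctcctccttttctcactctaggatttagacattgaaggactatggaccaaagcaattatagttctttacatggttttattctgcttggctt
OR4X2: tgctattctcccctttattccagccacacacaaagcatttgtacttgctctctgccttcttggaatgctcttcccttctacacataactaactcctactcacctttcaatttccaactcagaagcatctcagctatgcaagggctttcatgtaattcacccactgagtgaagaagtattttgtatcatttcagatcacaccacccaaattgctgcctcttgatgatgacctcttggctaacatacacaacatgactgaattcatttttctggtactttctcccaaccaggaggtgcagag
OR2J1: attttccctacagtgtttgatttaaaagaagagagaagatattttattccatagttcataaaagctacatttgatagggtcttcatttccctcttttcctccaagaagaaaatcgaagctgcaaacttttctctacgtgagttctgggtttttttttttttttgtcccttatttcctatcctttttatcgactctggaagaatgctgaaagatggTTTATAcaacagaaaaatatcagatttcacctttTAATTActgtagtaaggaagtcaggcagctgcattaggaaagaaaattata
The promoters with signal below the floor are those of OR2T5, at chr1:248488339-248488638 (plus strand), and OR4M2, at chr15:22080277-22080576 (plus strand).
OR2T5: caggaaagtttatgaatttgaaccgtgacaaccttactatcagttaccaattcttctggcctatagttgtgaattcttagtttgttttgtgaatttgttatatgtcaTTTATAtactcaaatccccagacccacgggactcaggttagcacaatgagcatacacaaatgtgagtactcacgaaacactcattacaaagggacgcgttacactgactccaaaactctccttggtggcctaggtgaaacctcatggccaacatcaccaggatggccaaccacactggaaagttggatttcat
OR4M2: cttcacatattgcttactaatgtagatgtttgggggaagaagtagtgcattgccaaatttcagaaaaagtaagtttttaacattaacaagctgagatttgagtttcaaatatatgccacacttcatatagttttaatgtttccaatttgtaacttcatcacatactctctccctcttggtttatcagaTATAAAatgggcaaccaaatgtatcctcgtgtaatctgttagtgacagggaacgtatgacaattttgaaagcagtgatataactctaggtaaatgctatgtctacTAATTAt
All 5 are poor in G and C, with 34.0% in OR2W1, 42.7% in OR4X2, 32.7% in OR2J1, 41.7% in OR2T5 and 33% in OR4M2. OR2J1 and OR4M2 hold both motifs, OR2T5 holds TATAAA, and OR2W1 and OR4X2 hold neither.

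Olfactory receptor promoters carried as much PAF1 and PHF5A signal as the promoters around them, and slightly more. The median olfactory window had a signal of 5.41 with PAF1, against 3.94 over the 10979 other windows of the same 5 Mb bins and 4.22 over all 56109 other autosomal windows. With PHF5A it was 5.42, against 4.13 in the same bins and 4.35 over all others. Set against the median of the other windows of its own 5 Mb bin (the local value, on the log2(signal + 0.5) scale), the median member was higher by 0.25 with PAF1 (95% interval 0.18 to 0.29) and by 0.19 with PHF5A (0.14 to 0.25). These differences correspond to 1.19-fold and 1.14-fold. Of the 869 windows, 558 lay above their local median with PAF1 (64.2%, 95% Wilson interval 61.0 to 67.3) and 541 with PHF5A (62.3%, 59.0 to 65.4), where 49.7% of all other autosomal windows did so in each library. Of the other windows in the same bins, 49.8% did so with PAF1 and 49.7% with PHF5A.

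The upper tail was heavier than that of other windows and the lower tail lighter. At least 2-fold above the local median were 116 windows with PAF1 (13.3%), against 6.24% of all other autosomal windows and 8.86% of those in the same bins. With PHF5A it was 101 windows (11.6%), against 5% and 7.41%. At least 2-fold below were 80 windows with PAF1 (9.21%), against 11.6% and 14%, and 71 with PHF5A (8.17%), against 10.5% and 13.5%. Both libraries placed 83 windows 2-fold higher, which is 71.6% of the PAF1 list and 82.2% of the PHF5A list. Of these 83 windows, 34 were class I, 14 lay on chromosome 19, 14 on chromosome 14 and 21 elsewhere, and 46 were intact genes and 37 pseudogenes. For 27 members, all on chromosomes 14 and 15, the local median was itself below the counting floor, and without them the 2-fold higher counts were 98 with PAF1 and 86 with PHF5A. The top 5% of all windows (signal from 9.88 with PAF1 and from 9.83 with PHF5A) held 61 olfactory windows with PAF1 (7.02%, against 4.98% of others) and 57 with PHF5A (6.56%, against 4.98%).

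The depth behind a single promoter is modest. Over 150 bp bins, the PAF1 signal of the olfactory windows summed to 83324 of 4666548 for all autosomal windows, and the PHF5A signal to 84256 of 4742164. The median member rested on a bin sum of 94 with PAF1 and 95 with PHF5A, which gave a median counting error of 1.15 and 1.16 signal units. A value below 0.72 to 0.77, the signal that 3 counts allow once scaled for the observed dispersion, is no more exact than a listed 0.

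Most of the set sat in large clusters, whose signal was on the whole above that of the surroundings. Chromosome 11 held 392 of the members (45.1%), and 693 windows lay in the 17 clusters with at least 10 members. In these the median local value was 0.29 with PAF1 and 0.25 with PHF5A. The 29 solitary windows had median local values of -0.53 and -0.51, and the 21 of them outside OR7E had -0.46 and -0.24. Smaller clusters of 2 to 9 windows (147 windows) lay at -0.23 and -0.32, but at 0.48 and 0.35 once their OR7E members were left out (76 windows). Among the 26 clusters with at least 5 members, the median local value was above 0 in 20 with PAF1 and in 21 with PHF5A, and among those with at least 10 it was above 0 in 15 of 17 in each library.

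**Figure D1:**
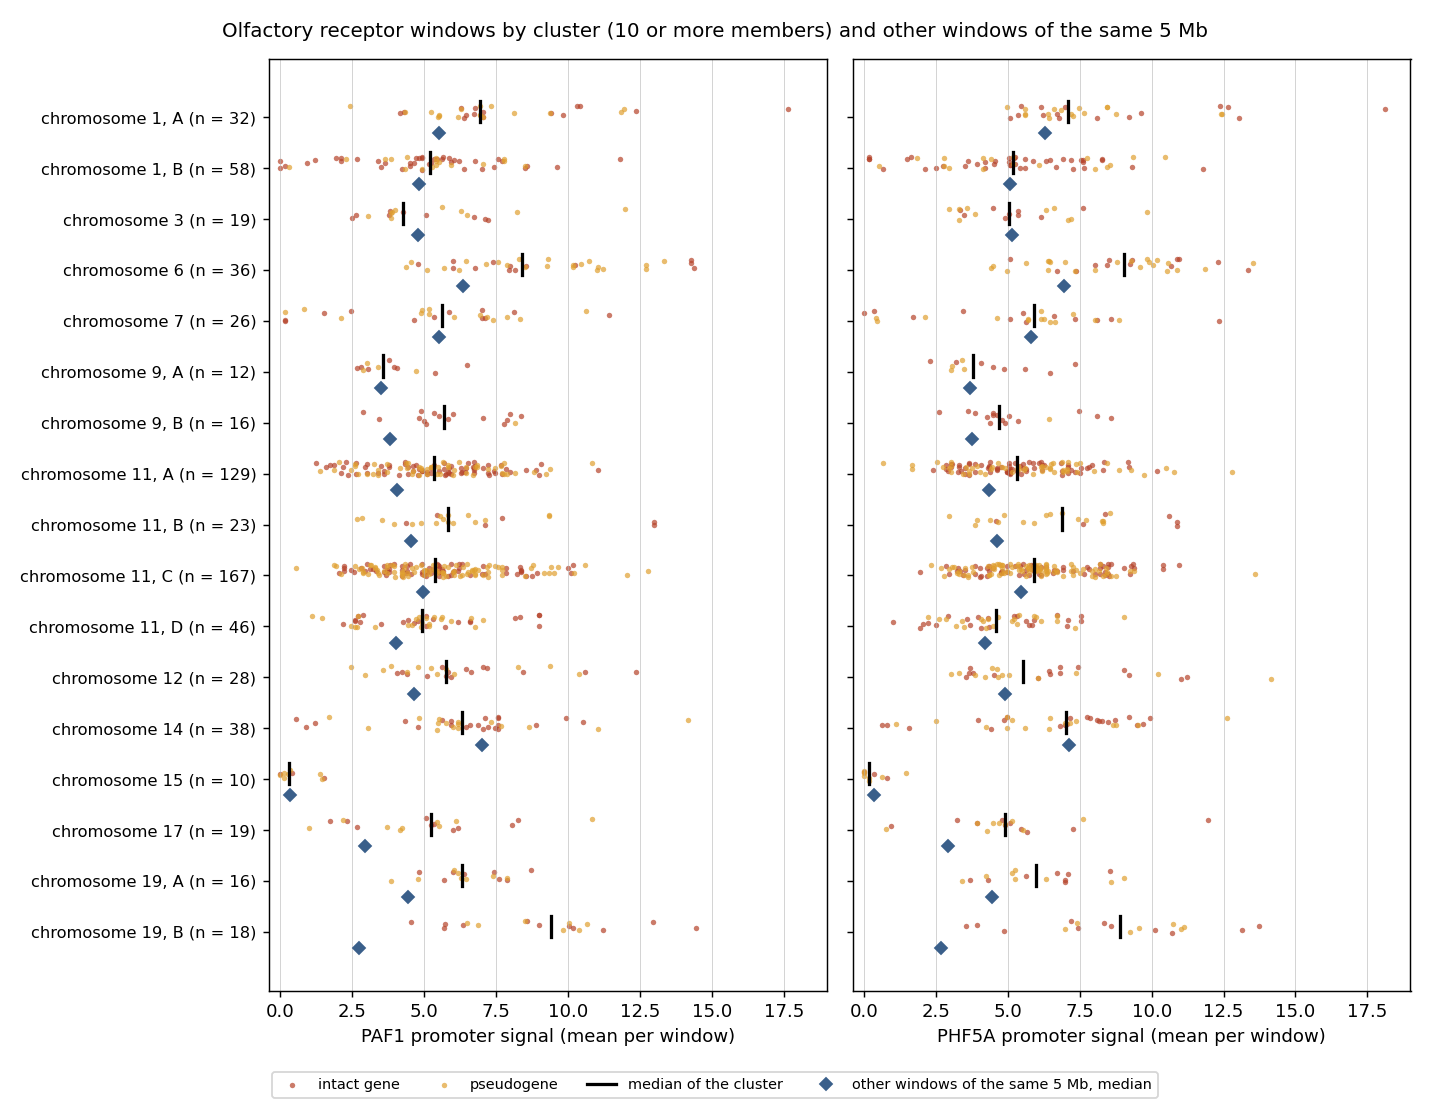
Promoter signal (x axis, mean per window, PAF1 left and PHF5A right) of each member in the 17 clusters with at least 10 members, letters numbering clusters along a chromosome. Points are single windows (intact genes and pseudogenes), black bars cluster medians and diamonds the median of other windows of the same 5 Mb; the bars stand right of the diamonds by most on chromosome 19, cluster B, at 9.41 against 2.72 with PAF1.

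Among the large clusters, the local value was highest in the second on chromosome 19, between 14.8 and 16.05 Mb, home of the OR7A, OR7C and OR10H receptors. Its 18 windows had a median signal of 9.41 with PAF1 and 8.91 with PHF5A, where the median of other windows in the bins concerned was 2.72 and 2.68. The local values were 1.54 (95% interval 1.09 to 1.71) and 1.47, and 14 windows with PAF1 and 15 with PHF5A were at least 2-fold higher. Of other windows in all 5 Mb bins with a member, 8.86% and 7.41% were so. OR7A17, a class II receptor, had 14.4 ± 1.86 with PAF1 and 13.1 ± 1.78 with PHF5A, which is 4.64-fold and 4.29-fold its local level. OR1I1 had 12.9 ± 1.76 and 13.7 ± 1.82, at 3.61-fold and 3.92-fold. The pseudogenes OR7A3P (10.05 and 11.01), OR7A15P (10.4 and 11.1) and OR7A11P (9.83 and 9.55) stood as high as most of the intact genes around them. OR7C2 was the lowest of the 18 by the mean of both libraries, with 4.55 ± 1.05 and 3.91 ± 0.97, and it too lay above its local level. The 55 other windows between the first and last receptor of this cluster had medians of 6.16 and 6.33, between the receptors and the wider neighbourhood. Genes in this stretch that are not receptors were thus also above the 5 Mb median.

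Receptors near the top of the whole set came from several clusters. OR6N1, at chr1:158766182-158768682, had the highest signal of all 869 windows with 17.6 ± 2.12 for PAF1 and 18.1 ± 2.15 for PHF5A, at 3.01-fold and 2.74-fold its local level. OR2AT4, the sandalwood-odorant receptor also known from keratinocytes, followed at chr11:75089254-75091754 with 14.8 ± 1.94 and 14.7 ± 1.94. OR2W1, a receptor known to answer to many odorants, had 14.4 ± 1.86 and 13.4 ± 1.8. All 3 were close in both libraries. OR5V1 (14.3 and 12.3) and OR2H2 (14.3 and 10.7) lie with OR2W1 in the cluster beside the major histocompatibility complex on chromosome 6. The first chromosome 1 cluster added OR6K3 (12.4 and 13.02) beside OR6N1. The highest pseudogenes were OR4T1P (14.2 and 12.6), OR2G1P (13.3 and 13.5), OR4C1P (12.05 and 13.6), OR2AT1P (10.2 and 14.2) and OR6K1P (11.9 and 12.5), which overlap the range of the highest intact genes apart from OR6N1 and OR2AT4.

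The chromosome 6 cluster, between 27.9 and 29.6 Mb, had high signal in a neighbourhood that was itself high. Its 36 windows had medians of 8.39 with PAF1 and 9.02 with PHF5A, against 6.35 and 6.95 for other windows of the same bins, giving local values of 0.38 and 0.35. The 70 other windows inside its limits had 7.10 and 7.49. In the first chromosome 1 cluster, between 158.4 and 159.6 Mb, the 32 receptor windows (6.94 and 7.09) lay below the 21 other windows inside the cluster (7.83 and 7.21). The chromosome 17 cluster, between 3.06 and 3.43 Mb, stood out the other way, with 5.23 and 4.91 against 2.94 and 2.90 in the same bin and local values of 0.74 and 0.67. Its OR1E1 had 8.05 ± 1.39 with PAF1 and 11.96 ± 1.70 with PHF5A, the highest PHF5A signal of that cluster.

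The cluster with the most members, between 54.6 and 59.7 Mb of chromosome 11, differed little from its surroundings. Its 167 windows had medians of 5.38 and 5.92, with local values of 0.12 in both libraries and 3 windows at least 2-fold higher with PAF1 and 1 with PHF5A. Over all 5 Mb bins with a member, the shares of other windows were 8.86% and 7.41%. The second chromosome 1 cluster (58 windows) had local values of 0.10 and 0.03, that on chromosome 7 (26 windows) 0.03 and 0.03, and the first on chromosome 9 (12 windows) 0.03 and 0.03. On chromosome 3, 19 windows lay at -0.14 and -0.03. The chromosome 15 cluster, between 20.96 and 22.1 Mb, was the only large cluster with next to no signal, with medians of 0.30 and 0.16. Its surroundings, at 0.33 and 0.33, were equally empty, and mappability there was not tested.

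Within clusters, single receptors differed by more than counting error. The standard deviation of log2(signal + 0.5) over the members of a cluster had a median of 0.54 with PAF1 and 0.51 with PHF5A over the 17 large clusters, where the counting errors alone gave 0.29 and 0.29. The observed value was the greater in 17 of 17 clusters in each library. The lowest members of clusters illustrate the range. OR2T29 had 0 and 0.16 where OR2C3, in the same chromosome 1 cluster, had 11.8 ± 1.73 and 11.8 ± 1.74. OR2A1 had 0.16 and 0 where OR6B1, on the same stretch of chromosome 7, had 11.4 ± 1.66 and 12.3 ± 1.73. OR2T29 and OR2A1 belong to subfamilies with recent, similar copies, so their values are uncertain where read placement could split copies; mappability was not tested.

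**Figure D2:**
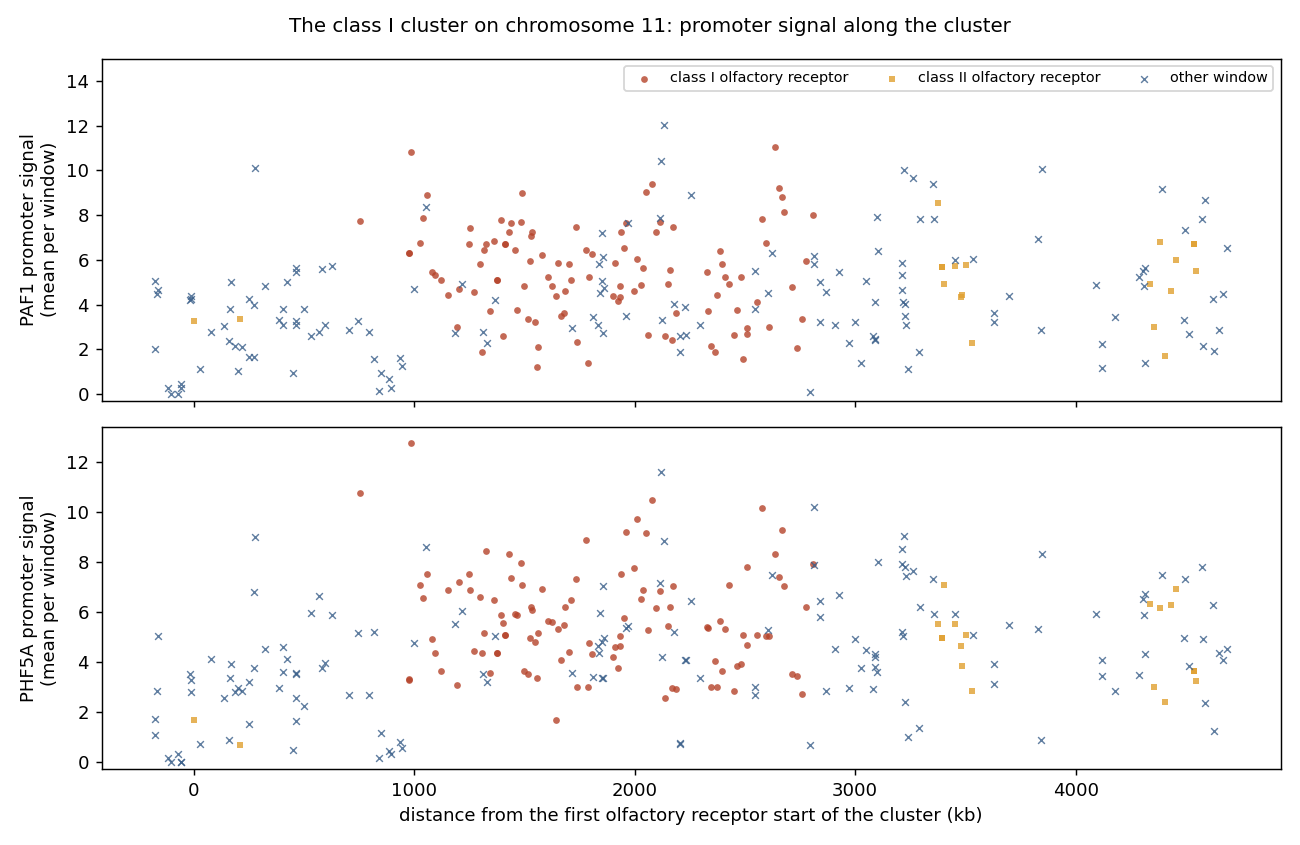
Promoter signal (y axis, mean per window, PAF1 above and PHF5A below) along the class I cluster of chromosome 11, by distance from its first olfactory receptor start in kb. Circles are class I receptors, squares class II receptors and crosses other windows; class I receptors run from 1.23 to 11.05 with PAF1 and from 1.67 to 12.78 with PHF5A.

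Class I receptors, the fish-like families OR51 to OR56, looked higher than class II by the local value but not by signal. All 109 class I windows lay on chromosome 11, with medians of 5.33 with PAF1 and 5.38 with PHF5A, against 5.42 and 5.42 for the 760 class II windows. Their local values were 0.68 (95% interval 0.48 to 0.90) and 0.69 (0.47 to 0.86), against 0.19 and 0.13 in class II. The gap came with a low neighbourhood. In the first 5 Mb of the chromosome, 44 class I windows had medians of 6.25 and 5.74 against 1.59 and 1.89 for other windows there, and 37 with PAF1 and 36 with PHF5A were at least 2-fold higher. In the next 5 Mb, 65 class I windows had medians of 4.94 and 5.32 against 4.05 and 4.35, with local values of 0.26 and 0.26, and 5 windows in each library were at least 2-fold higher. Of other windows in all 5 Mb bins with a member, 8.86% with PAF1 and 7.41% with PHF5A were at least 2-fold higher. The 18 class II windows in that same second bin had local values of 0.43 and 0.17. Against the median of the whole library, class I stood below class II by 0.02 with PAF1 and 0.01 with PHF5A.

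Among the class I genes, OR52B3P had the highest signal relative to its bin, with 10.8 ± 1.66 with PAF1 and 12.8 ± 1.81 with PHF5A, or 5.40-fold and 5.55-fold. OR51E1, a receptor known from prostate, had 7.44 ± 1.34 and 6.87 ± 1.29, at 3.79-fold and 3.08-fold. Its relative OR51E2 had 1.88 ± 0.67 and 4.35 ± 1.03, close to its local level with PAF1 (1.14-fold) and 2.03-fold above it with PHF5A. OR51L1, which answers to fruity esters, had 5.23 ± 1.15 and 5.62 ± 1.20. OR51B5, known from leukaemia cells, has 2 windows with 7.70 and 6.52 with PAF1 and 6.86 and 5.74 with PHF5A. The higher of them, at chr11:5505152-5507652, nearly coincides with the window listed for the embryonic globin gene HBE1 (7.88 and 7.15). These 2 listings therefore hold nearly the same signal. That HBE1 window lies far from the HBG1 window at chr11:5249392-5251892, with receptor windows between them. It follows a distant listed start and is not read here as signal of a promoter within the globin locus. The adult beta-globin gene HBB, silent outside red cells, had 5.82 ± 1.22 and 4.37 ± 1.06, inside the range of the receptors around it.

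The OR7E subfamily, unlike most of the family, lay below its surroundings. Its 87 windows, 86 of them pseudogenes, were spread over 33 clusters on 13 chromosomes. Their median signal was 2.44 with PAF1 and 2.34 with PHF5A, against 5.61 and 5.66 for the other 782 members. The local values were -0.59 (95% interval -0.78 to -0.43) and -0.65 (-0.92 to -0.54), against 0.30 and 0.26 for the other members. Not 1 OR7E window was 2-fold higher in either library, against 6.24% of all other autosomal windows with PAF1 and 5% with PHF5A. At least 2-fold lower were 29 with PAF1 (33.3%, against 11.6% of all other autosomal windows) and 28 with PHF5A (32.2%, against 10.5%). The 10 OR7E windows on chromosome 8 were lowest, with local values of -1.10 and -0.92, but the 77 on other chromosomes kept -0.59 and -0.64. The 14 OR7E windows on chromosome 11 had 0.13 with PAF1, 8 of them above their local level, and -0.21 with PHF5A, 5 of them above. In the receptor clusters of chromosome 19, 5 OR7E windows had positive values of 0.45 and 0.22. The other members of family OR7 on that chromosome, 18 windows, had 0.99 and 1.12. The intact OR7E24 (7.61 and 8.55) and the pseudogenes OR7E47P (10.8 and 8.28) and OR7E2P (10.1 and 6.59), singled out after their values were seen, were among the highest OR7E windows. OR7E copies resemble each other, so single values are uncertain where read placement could split copies, and mappability was not tested.

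**Figure D3:**
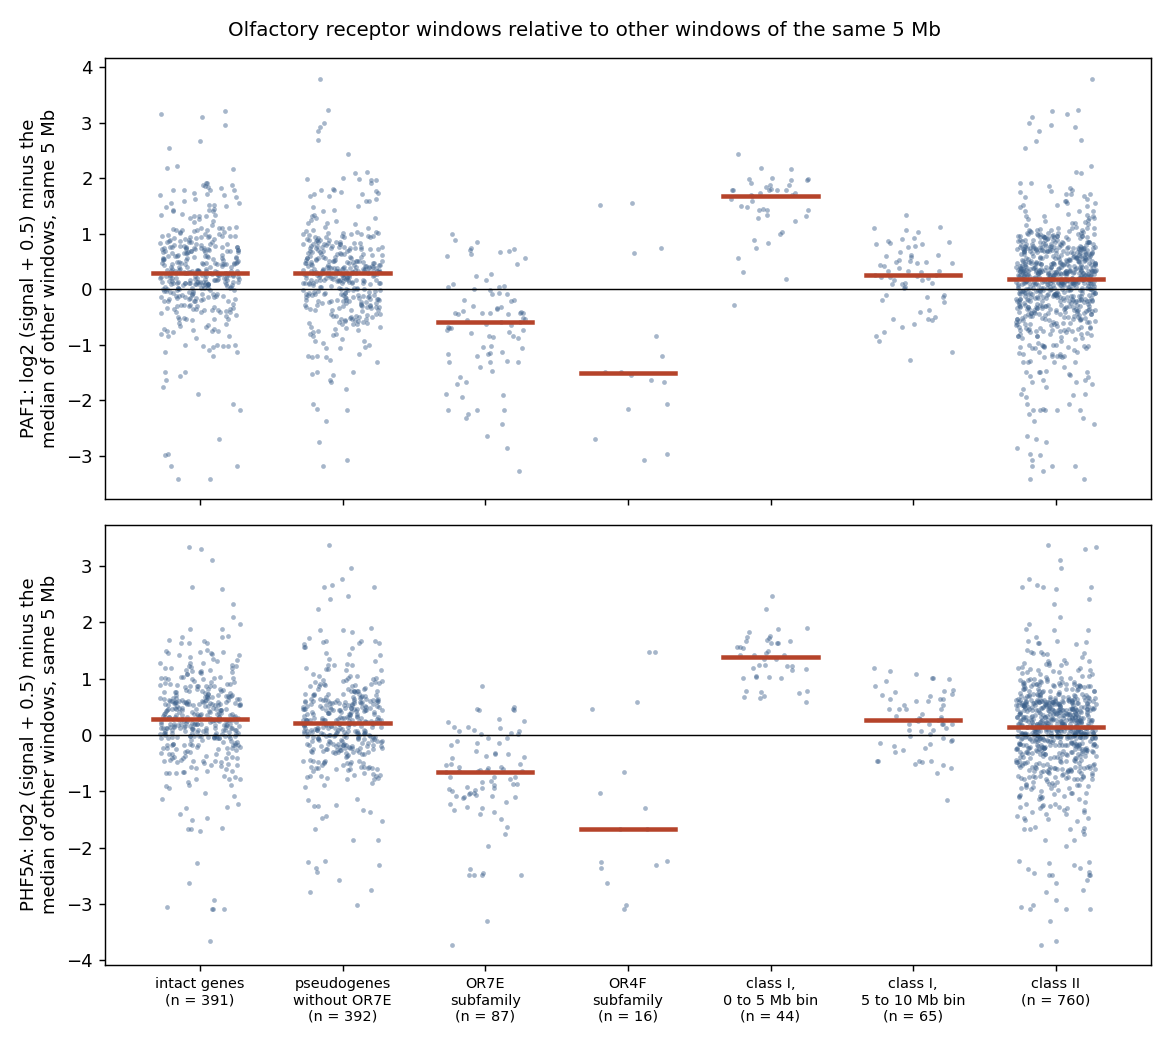
Local value (y axis, log2(signal + 0.5) minus the median of other windows of the same 5 Mb) of each window by group, PAF1 above and PHF5A below, with a bar at the group median and the line at 0 as the local level. The OR7E bar lies at -0.59 with PAF1 and the bar of class I in the first 5 Mb bin at 1.69.

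Receptors of the OR4F subfamily, which lie beside the ends of many chromosomes, were mostly empty. The 16 windows had medians of 0.22 with PAF1 and 0.08 with PHF5A, and 11 of them were below the counting floor in both libraries. Whether reads could be placed uniquely in these windows was not tested, so a value near 0 need not mean absent signal. The exceptions lay near the end of chromosome 15, where OR4F6 had 8.94 ± 1.51 and 8.52 ± 1.48, and OR4F15, whose window overlaps it almost entirely, had 8.72 ± 1.45 and 8.55 ± 1.44. OR4F14P (4.55 and 3.96) and OR4F13P (4.88 and 4.37), on the same stretch, also held signal. Across the whole set, 13 windows were listed at 0 in both libraries (1.50%, against 1.68% of other autosomal windows), and 40 were below the floor in both (4.60%, against 4.17%). The 13 at 0 were OR4F29, OR4F3, OR4F21, OR4F1P, OR4F8P, OR4G4P, OR4N4, OR11J2P, OR6L1P, OR7E86P, OR7E125P, OR7E154P and OR7E157P. Empty windows were therefore about as frequent among receptors as elsewhere, and 18 of the 40 belonged to OR7E (7) or OR4F (11).

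Intact genes and pseudogenes had nearly the same signal once OR7E was set aside. Intact windows had medians of 5.70 with PAF1 and 5.64 with PHF5A, and pseudogene windows 5.13 and 5.14. The local values were 0.30 (95% interval 0.24 to 0.36) and 0.29 (0.20 to 0.36) for intact genes, against 0.17 (0.10 to 0.26) and 0.08 (0.02 to 0.16) for pseudogenes. Without OR7E, the 392 remaining pseudogene windows had medians of 5.52 and 5.70 and local values of 0.29 and 0.21, so that the difference of medians was 0.01 with PAF1 and 0.08 with PHF5A. In the 14 clusters with at least 5 of each kind, intact genes had the higher median in 7 with PAF1 and in 8 with PHF5A. The pseudogene windows include 44 that are described as gene or pseudogene depending on the allele and that the rule counts as pseudogenes. These 44 had medians of 5.55 and 6.31.

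On chromosome 14 the receptors marked the edge of a nearly empty region. The 21 windows between 20 and 25 Mb had medians of 7.47 with PAF1 and 7.87 with PHF5A, close to the other windows there, with local values of 0.09 and 0.14. The 17 windows between 15 and 20 Mb had 5.47 and 4.97, among other windows whose medians of 0.33 and 0.39 were below the counting floor. A fold against a level below the floor is not interpretable and is not given for these genes. Mappability of this region was not tested. OR4N1P was the highest of them with 11.05 ± 1.68 and 8.75 ± 1.50. OR4K1 had 6.88 ± 1.29 and 8.49 ± 1.43, OR4K5 had 6.61 ± 1.26 and 8.27 ± 1.41, and OR4N2, a few windows away, had 0.55 and 0.78. Without the 27 members of the set whose neighbours were below the floor, the median local values of the remaining 842 were 0.23 and 0.18.

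A list of 18 receptors with a known odorant or known transcripts outside the nose (19 windows) had signals from 1.88 to 14.8 with PAF1 and from 1.95 to 14.7 with PHF5A. In each library 18 of the 19 windows lay above their local median, and the median local values were 0.74 and 0.62. Of all receptor windows 64.2% and 62.3% did so, and of all other autosomal windows 49.7% in each library. At least 2-fold higher were 5 with PAF1 and 4 with PHF5A. The shares were 13.3% and 11.6% of all receptor windows, and 6.24% and 5% of all other autosomal windows. The list was set by hand, and OR51E1, OR51E2 and OR51L1 lie in a bin with low local medians of 1.59 and 1.89. Low local medians also applied to OR1A1, OR1D2 and OR3A1 (2.94 and 2.9), OR7C1 (2.72 and 2.68) and OR10H1 (3.22 and 3.13). Those of OR2AT4 (6.36 and 7.15) and OR11H7 (7 and 7.12) were high. A difference from other receptors was not tested. OR7D4, the receptor for androstenone, had 6.0 ± 1.24 with PAF1 and 6.98 ± 1.34 with PHF5A. OR5AN1, which binds muscone, had 5.94 ± 1.20 and 7.82 ± 1.38, and OR5A1, the beta-ionone receptor, had 10.2 ± 1.61 and 8.58 ± 1.48. OR6A2, near the locus linked to the soapy taste of coriander, had 4.94 ± 1.09 and 7.09 ± 1.31. OR1A1 (5.35 and 5.68), tuned to citronellal, OR3A1 (6.0 and 4.79), tuned to helional, and OR1D2 (5.05 and 3.91), the bourgeonal receptor of sperm, lie together on chromosome 17. OR2J3, which answers to leaf alcohol, had 7.38 and 10.95, and OR11H7, the isovaleric acid receptor, had 7.66 and 8.66. OR10G4, the guaiacol receptor, was the 1 member of the list below its local level, with 2.76 ± 0.84 and 1.95 ± 0.71. Of the receptors described in tumours, OR7C1 had 10.05 ± 1.56 and 7.21 ± 1.32, at 3.28-fold and 2.42-fold its local level, and OR10H1 had 5.70 ± 1.21 and 3.55 ± 0.95, at 1.67-fold and 1.12-fold.

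Receptors high with PAF1 were mostly high with PHF5A too. Across the 869 windows, PAF1 and PHF5A signals had a Spearman's rho of 0.825, against 0.838 across other autosomal windows, and 0.829 against 0.778 for the local values. These points share cells and genome, and neighbouring windows share signal, so rho is a description. The median difference of PAF1 minus PHF5A, each centred on its library median, was 0.05 (log2), against 0.02 over other windows, with a standard deviation of 0.42 against 0.47. PAF1 signal was at least 2-fold higher than PHF5A signal in 8 windows (0.921%, against 1.79% of other windows) and at least 2-fold lower in 14 (1.61%, against 2.36%). Differences between antibodies were thus no more frequent among receptors than elsewhere.

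**Figure D4:**
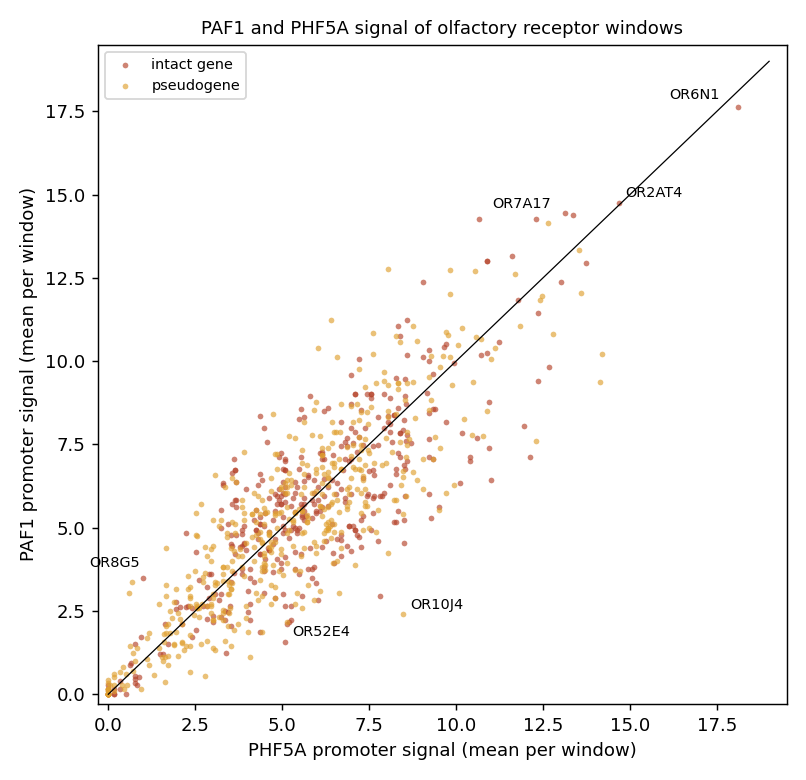
PAF1 signal (y axis) against PHF5A signal (x axis), mean per window, for the 869 olfactory receptor windows, with intact genes and pseudogenes in separate colours and the line of equal signal. OR6N1 stands at the top of both axes, at 17.6 and 18.1, and OR10J4 lies farthest below the line, at 2.41 and 8.46.

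The receptors that differed most between the antibodies were few. With a mean signal of at least 2, the largest differences toward PAF1 were in OR7E117P (3.38 ± 0.90 with PAF1 and 0.67 with PHF5A), OR8G5 (3.50 ± 0.92 and 1.00 ± 0.49) and OR52J2P (4.38 ± 1.03 and 1.67 ± 0.64). The largest toward PHF5A were in OR10J4, a pseudogene by description (2.41 ± 0.78 with PAF1 and 8.46 ± 1.47 with PHF5A), OR8G2P (1.11 ± 0.52 and 4.08 ± 0.99) and OR52E4 (1.58 ± 0.64 and 5.08 ± 1.14). OR8G5 and OR8G2P lie in 1 cluster, the last on chromosome 11, and differ in opposite directions. These 6 were picked as extremes of 1 library against another and have no replicate.

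Receptor promoters differ from most other promoters in base composition. A RefSeq promoter lay inside the window of 192 members, 178 of them intact, under 176 symbols. Its median GC content was 35.5% in receptors, against 63.7% in 2542 other promoters of the same 5 Mb bins, and the median number of CpG dinucleotides was 1 against 23. TATAAA occurred on either strand in 37.5% of receptor promoters, against 8.5% in the same bins and 9.45% of all 12032 other promoters. TAATTA, the core of sites for homeodomain factors such as LHX2, occurred in 24.0%, against 3.38% and 3.27%. The EBF palindrome, TCCC and GGGA with any 2 bases between them, occurred in 0 of 192, which allows a share of up to 1.56%, against 1.22% and 1.44%. The shares count windows, so a receptor promoter listed under more than 1 identifier counts more than once, and the limit of 1.56% is slightly too low. The shares were not matched for GC content.

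Over all 12224 promoters with a sequence, signal fell with GC content, with rho of -0.354 with PAF1 and -0.346 with PHF5A. Among the receptor promoters alone, rho was 0.170 and 0.126. In the GC range from 27.7% to 45.3%, 173 receptor promoters had medians of 5.61 with PAF1 and 5.91 with PHF5A, against 5.55 and 5.77 for 234 other promoters of the same bins. The local values were 0.28 and 0.30 for receptors, against 0.19 and 0.19 for the others in that range. The 2308 other promoters above that range had medians of 3.41 and 3.72, and local values of -0.14 and -0.09. By median signal, receptor promoters were thus close to other promoters of like GC content and above promoters rich in GC. By median local value they lay slightly above others of like GC content, but not in every 5-point interval, and the difference was not tested. With PAF1 the local values were 0.17 against 0.21 at 30 to 35% GC and 0.67 against 0.22 at 40 to 45%. With PHF5A they were 0.19 against 0.35 and 0.58 against 0.19. The range from 27.7% to 45.3% held only 173 of the 869 windows.

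**Figure D5:**
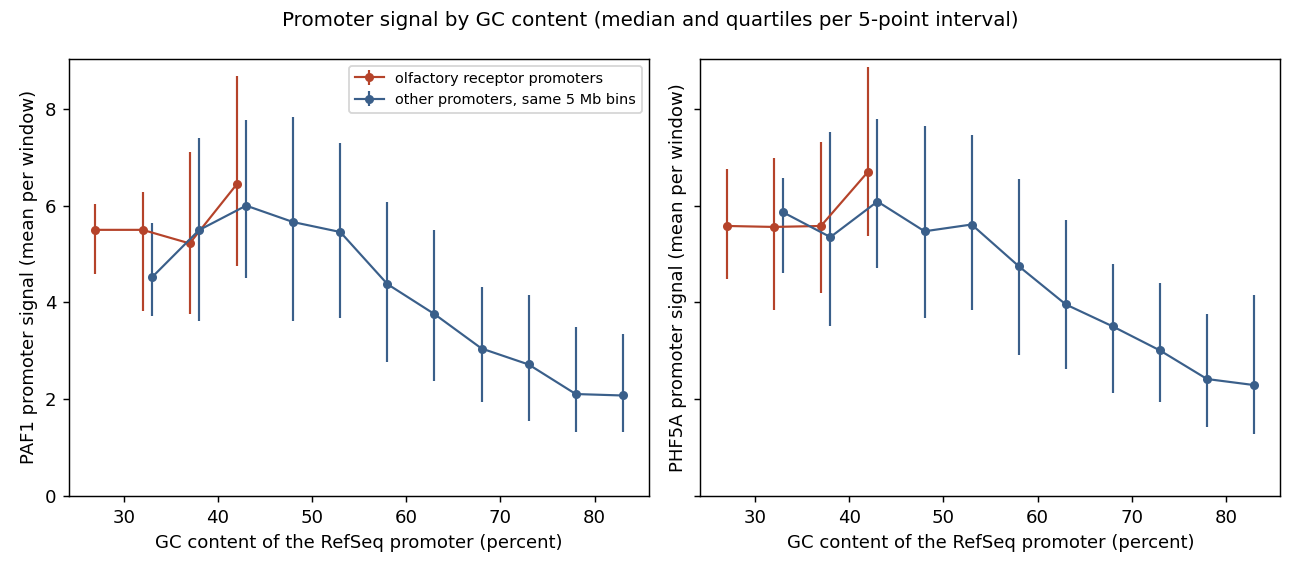
Median promoter signal (y axis, mean per window, with quartiles as bars, PAF1 left and PHF5A right) by GC content of the RefSeq promoter in intervals of 5 points, for olfactory receptors and for other promoters of the same 5 Mb bins. Receptors at 40 to 45% GC have 6.44 with PAF1, against 6.0 for other promoters in that interval, and other promoters at 80 to 85% have 2.08.

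The annotated start of a receptor gene is often not where RefSeq places it, which bears on what these windows cover. Of 307 intact receptor windows with a RefSeq promoter, 155 had a RefSeq start within 100 bp of the start used in the table, and 120 had one more than 2000 bp upstream, beyond the window. For the 129 windows with the RefSeq start outside, the median distance was 4169 bp. Medians were close in both kinds, with PAF1 medians of 5.70 for starts outside and 5.61 for starts inside, and PHF5A medians of 5.75 and 5.64. The corresponding local values were 0.31 and 0.29 with PAF1, and 0.25 and 0.34 with PHF5A. Median gene length was 981 bp for intact genes and 932 bp for pseudogenes, so the last 500 bp of a window cover a large part of such a gene.

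Among the 303 receptor symbols with a RefSeq promoter, of 837 in all, no pair of promoters reached 95% identity. Promoters were compared end to end, each fixed at its own RefSeq start. Copies whose starts are placed at different offsets would be missed, so the comparison does not show that near-identical copies are absent. Most pseudogenes, nearly all OR7E copies among them, were not compared. The closest were OR13C2 and OR13C5 on chromosome 9, neighbours with 91.7% identity. OR13C2 had 5.38 ± 1.14 with PAF1 and 5.58 ± 1.16 with PHF5A, against 2.82 ± 0.85 and 3.19 ± 0.90 in OR13C5. OR5H15 (7.22 and 6.14) and OR5H1 (2.5 and 3.35), with 87.7% identity, differed likewise.

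The other genes of the olfactory pathway were not raised as a group. Of the transduction list, 19 of 20 symbols were measured, with median local values of 0.06 with PAF1 and -0.14 with PHF5A. In each library 2 of them were at least 2-fold higher and 2 were at least 2-fold lower, which is 10.5% each way, against 6.24% higher and 11.6% lower with PAF1 and 5% and 10.5% with PHF5A over all other autosomal windows. The 2 higher were GNB1, a G protein beta subunit used in most cells (2.36-fold and 2.17-fold), and REEP1, an accessory protein of receptor transport (2.02-fold and 2.16-fold). GNB1 had signals of only 2.76 and 2.89, below the library medians of 4.22 and 4.37, in a bin with local medians of 0.88 and 1.06. REEP1 had 7.66 and 7.54. The 2 lower were ADCY3, the olfactory adenylyl cyclase (2.38 ± 0.76 and 0.72 ± 0.42), and GNG13, a G protein gamma subunit (0.33 and 0.16). GNAL had 4.52 ± 1.07 and 2.78 ± 0.84, CNGA4, a channel subunit, had 5.0 and 6.42, and OMP, the marker of mature olfactory neurons, had 7.72 ± 1.36 and 6.48 ± 1.25. Of 11 regulators of receptor choice, none was 2-fold higher and 2 were lower in each library (18.2%, against 11.6% and 10.5%), namely the EBF-family factor EBF3 (0.23 and 0.29) and the chromatin remodelling subunit BPTF (1.94 and 1.11). LHX2, the homeodomain factor of olfactory enhancers, had 4.55 and 4.08.

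Other chemoreceptor families lay near their local levels. The 6 trace amine receptors had median local values of 0.06 and 0.17, with none past 2-fold. The 32 bitter taste receptors had 0.16 and 0.08, with 2 higher and none lower with PAF1 (6.25% higher) and none higher and 1 lower with PHF5A (3.12% lower), against the shares over all other windows given for the transduction list. The 60 vomeronasal receptor windows, 57 of them pseudogenes, had 0.04 and 0.07, with 4 higher and 5 lower with PAF1 (6.67% and 8.33%, against 6.24% and 11.6% of all other windows) and 3 higher and 2 lower with PHF5A (5% and 3.33%, against 5% and 10.5%). Their medians are smaller than the 0.25 and 0.19 of the olfactory receptors, a difference that was not tested.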

How the data were processed

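ChIP signal of the PAF1 and PHF5A libraries was taken from the authors' deposited promoter table, in which each value is the mean signal of a library over 1 window of hg38. How it was normalized is not stated in the sources used here. Per the submitters' processing notes, the tools included Bowtie2 2.2.3, Trim Galore, bedtools, deepTools and Picard, on GRCh38 (hg38), with no settings. Values equal whole numbers averaged over 150 bp bins within 0.0051 for 100% of windows, after division by 1.00608 for PHF5A.

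Members followed the name rule. The genes named were the highest intact genes and pseudogenes, the extremes of each large cluster, the largest antibody differences, the highest local values, windows at 0 and receptors with known ligands. Members and lists were chosen with earlier results of these data known. Local values used log2(signal + 0.5) minus the median of other windows (at least 5) of the 5 Mb bin. The counting error used a dispersion of 4.33 over 50207 non-overlapping windows, an upper bound that includes true differences between antibodies. The local value was tested on simulated data with known shifts. RefSeq (GRCh38.p14) gave a promoter for 324 members. Alternatives changed the pseudocount, bins, filters, cluster gap and chromosomes. Software was Python 3.11.15 with numpy 2.4.6, pandas 2.3.3, matplotlib 3.10.9 and SciPy 1.17.1. The ± errors and the floors cover counting error only, and intervals of medians cover the spread between windows only.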

Additional observations from a re-analysis of the deposited data

Results flagged for a closer look

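Outside the autosomes, 10 windows on chromosome X carry olfactory receptor names and were left out by the rule. With PAF1 their signals ran from 2.44 to 6.0 with a median of 4.76, and with PHF5A from 3.07 to 8.22 with a median of 4.69. All 10 lay above the counting floor in both libraries, so signal was present in windows that no comparison used.

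In 1 cluster with at least 5 members the libraries disagreed in direction. Its 5 windows on chromosome 4, between 3.89 and 4.18 Mb, hold 4 OR7E pseudogenes, and their median local value was -0.43 with PAF1 and 0.072 with PHF5A. The difference was not tested, and their median signals were 1.33 and 2.17.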

How the results depend on the processing

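The olfactory excess over neighbours kept its direction under all alternatives run, while its size depended on the comparison set. With other windows within 2.5 Mb on each side it was 0.16 with PAF1. Against the library median it was 0.32 with PAF1 and 0.28 with PHF5A. Against other windows inside the same cluster it was 0.18 and 0.12, and without OR7E it was 0.26 with PHF5A. The 2-fold higher counts were 77 and 57 within 2.5 Mb, 64 and 55 without chromosome 11, 260 and 224 at 1.5-fold, 54 and 39 at 3-fold, and 35 and 25 against windows inside the cluster, where fewer members could be compared. The 2-fold lower counts were 48 and 36 without windows of mean signal under 1, 133 and 133 at 1.5-fold, 36 and 35 at 3-fold, 51 and 43 without OR7E, 45 and 41 inside the cluster, and 42 with PHF5A without windows below the floor in both libraries. The main setting gave 116 and 101 of 869 higher, against 8.86% and 7.41% of other windows in the same bins. No share of other windows was computed under the alternative settings. Whether the heavier upper tail and lighter lower tail hold under them was therefore not tested.

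The intact minus pseudogene difference was 0.32 and 0.34 without chromosome 11, 0.0098 and 0.077 without OR7E, and 0.070 with PHF5A against windows inside the cluster. The class I minus class II difference turned to -0.023 and -0.0098 against the library median, and was 0.26 with PHF5A inside the cluster. Clusters above their neighbours numbered 12 of 17 and 13 of 17 against other windows inside them. The PAF1 minus PHF5A median was 0.016 without members whose windows overlap another. The comparisons without OR7E, with windows inside the cluster and without windows below the floor were chosen after seeing the data. The cause of these changes was not tested. Leaving out near-identical promoters gave no value, since no pair reached 95% identity among the 303 of 837 symbols with a RefSeq promoter. The other symbols were not compared, and copies with RefSeq starts at different offsets would be missed. The effect of near-identical copies was therefore not tested. No paired analysis was possible because each antibody has 1 library and the labels carry no replicate numbers. Single values rest on few counts, so small differences between neighbouring receptors were not resolved at this depth. The error of a difference is larger than the counting error of either window, and no detection limit was computed.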
